A study of Mus musculus with 11 samples.

Results

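The genes described here encode 10 proteins of water-soluble vitamin uptake, chosen by symbol: the folate transporter Slc46a1, the riboflavin transporters Slc52a3 and Slc52a2, the thiamine pyrophosphate transporter Slc44a4, the thiamine transporters Slc19a2 and Slc19a3, the ascorbate transporter Slc23a1, the biotin and pantothenate transporter Slc5a6, and Cubn and Amn, whose products form the receptor for cobalamin bound to intrinsic factor. All 10 were found among the 24250 gene symbols measured by RNA sequencing in small intestine of mice. The libraries fell into 3 groups: 4 from mice given 5 Substances Powder with Poria (its number is a word in the labels), a preparation of traditional Chinese medicine called FSP here, 4 labelled HFD and read as high-fat diet, and 3 labelled ND and read as normal diet. The series title speaks of obese mice, but the diet eaten by the FSP group is not stated, and no label gives age, strain, sex, length of treatment, dose, batch or which stretch of gut was sampled. Levels are FPKM, the fragments of a gene scaled to its length and to the total of its library, so levels of different genes are compared here per length.

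Mammals cannot make most of these vitamins, and the absorptive cells of the small intestine take them up through dedicated carriers in the brush border facing the gut lumen. Uptake is divided along the length of the gut: folate is absorbed mainly in the duodenum and upper jejunum through Slc46a1, a transporter that moves folate together with protons, whereas cobalamin bound to intrinsic factor is absorbed in the terminal ileum through cubilin and amnionless, the products of Cubn and Amn. Thiamine, riboflavin, biotin, pantothenate and ascorbate enter through carriers of several solute carrier families, some coupled to sodium. Position along the gut is therefore given beside the levels.

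Markers of gut position differed between the groups. A position score, which subtracts the mean log2(FPKM + 1) of 12 proximal genes from that of 12 distal ones with no vitamin transporter in either list, was 1.75, 1.75, −0.07 and 2.43 in FSP 1 to 4, −1.34, −0.60, −1.24 and −1.76 in HFD 1 to 4, and 4.10, 3.22 and 1.73 in ND 1 to 3. The HFD libraries all lay below the others, FSP 3 stood next to them, and FSP overlapped ND at ND 3. Of the 12 distal genes, among them the ileal bile acid genes Fabp6, Slc10a2 and Fgf15, 0 were higher and 11 lower in HFD than in ND, and 6 were higher and 0 lower in FSP than in HFD. Of 9 tested proximal genes, 5 were higher and 2 lower in HFD than in ND, and 1 was higher and 0 lower in FSP than in HFD. Over all tested genes, 5.36% were higher and 15.1% lower in HFD than in ND. In FSP against HFD, these shares were 2.83% higher and 0.913% lower. Because no label gives the stretch sampled, a difference between groups and a difference in the stretch of gut taken cannot be told apart here.

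The tissue carried its defining markers. Summed FPKM of 8 epithelial genes ran from 7002 to 8206 in FSP, 4833 to 6899 in HFD and 6046 to 6382 in ND, while 6 measured pancreatic acinar genes summed to at most 0.164 FPKM and 2 measured stomach genes to at most 0.130 FPKM in any library. Of the epithelial genes, 0 were higher and 2 lower in HFD than in ND, and 2 were higher and 0 lower in FSP than in HFD. Over all tested genes, 5.36% were higher and 15.1% lower in HFD than in ND, and 2.83% higher and 0.913% lower in FSP than in HFD. Summed FPKM of 7 colon genes was 102.4 to 153.9 in FSP, 49.3 to 131.9 in HFD and 226.9 to 272.8 in ND, with ND above both other groups. Of 4 tested colon genes, 0 were higher and 2 lower in HFD than in ND, and 0 were higher and 1 lower in FSP than in ND. In FSP against ND, 0.699% of all tested genes were higher and 0.33% lower. Genes of B and plasma cells, 7 in number, averaged 1.32 to 5.38 on the log2(FPKM + 1) scale in FSP, 1.56 to 4.76 in HFD and 1.25 to 1.38 in ND. The 13 mitochondrially encoded protein genes took 12.9% to 21.9% of summed FPKM in FSP, 18.1% to 40.4% in HFD, with HFD 1 the highest, and 16.3% to 22.2% in ND. The part of these differences in the results below was not tested. In tissue RNA, fewer cells of a type and less RNA per cell cannot be told apart.

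In HFD against ND, 7 of the 9 transporter genes tested were past a Benjamini-Hochberg adjusted p of 0.05 by limma, where 20.5% of all 10296 tested genes were. Of these transporters 3 were higher and 4 lower, with 5.36% of all tested genes higher and 15.1% lower. Slc46a1, Slc23a1 and Slc19a2 were higher, and Slc52a3, Slc44a4, Slc5a6 and Amn were lower. The remaining gene, Slc19a3, averaged under the 1 FPKM that a gene needed to enter the fit. The groups did not overlap for 8 of the 10 genes, against 42.9% of all tested genes. The median log2 change was −0.23 over the 9 tested transporter genes and −0.21 over all tested genes.

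In FSP against HFD, 4 of the 9 tested genes were past the threshold, where 3.74% of all tested genes were, and 3 were higher and 1 lower, with 2.83% of all tested genes higher and 0.913% lower. Slc52a3, Slc44a4 and Amn were higher and Slc46a1 was lower. The count was 2 without any 1 of FSP 1, FSP 2, FSP 4, HFD 1, HFD 3 and HFD 4. The groups did not overlap for 7 of the 10, against 10.8% of all tested genes. The median log2 change was 0.59 over the 9 genes and 0.12 over all tested genes. The 2 comparisons share the 4 HFD libraries, so a chance deviation of HFD moves both in opposite directions, and each comparison's values stand on their own below.

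In FSP against ND, 1 of the 9 tested genes was past the threshold, Slc23a1, where 1.03% of all tested genes were. It was higher in FSP, as were 0.699% of all tested genes, with 0.33% lower. By unadjusted limma p, 6 of the 9 were under 0.05. The share of all tested genes under that unadjusted cut was not computed, so this count has no background and is not comparable with the 1.03%. The groups did not overlap for 4 of the 10, against 16.4% of all tested genes. The median log2 change was 0.20 over the 9 genes and −0.07 over all tested genes.

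**Figure D1:**
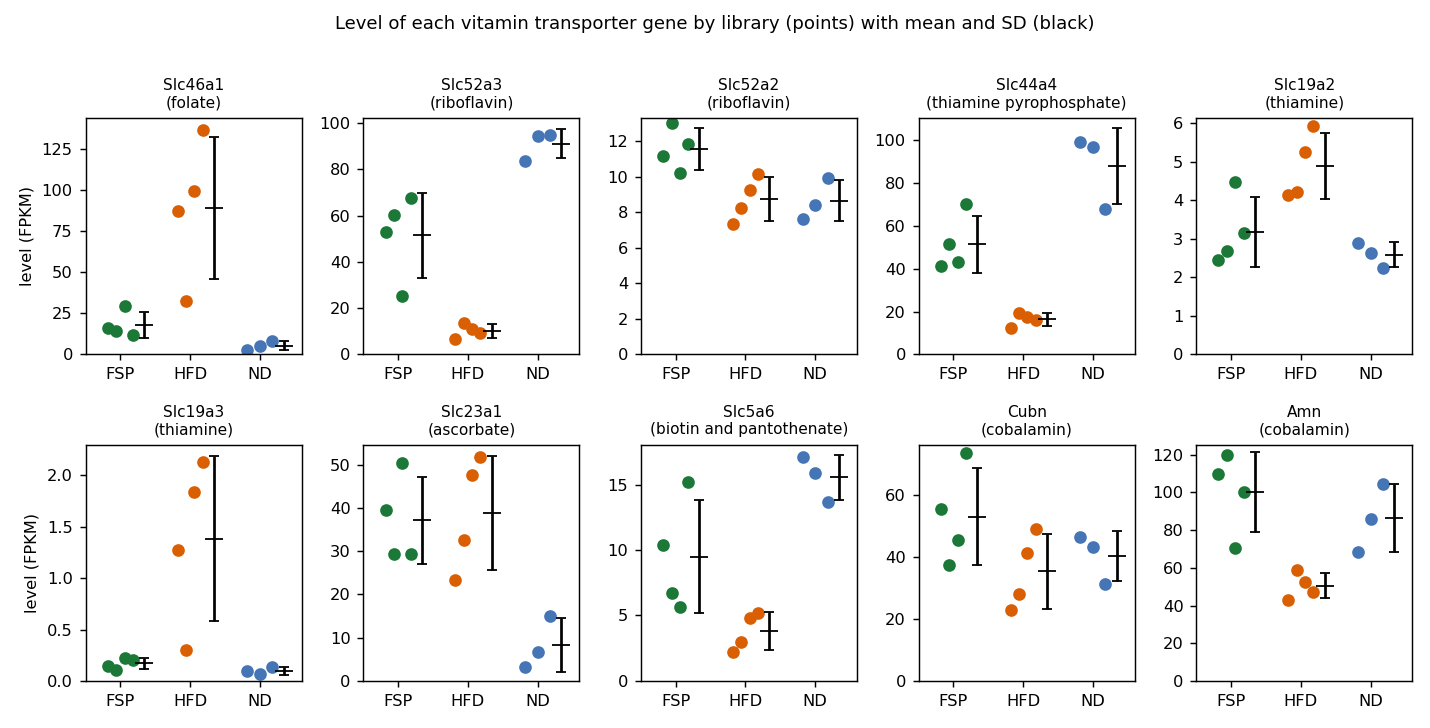
Level in FPKM of the 10 vitamin transporter genes, with 1 panel per gene, 1 point per library, and the mean and SD of each group (FSP n = 4, HFD n = 4, ND n = 3) in black. Slc46a1 is highest in HFD, where it averages 89.2 FPKM, Slc52a3 and Slc44a4 are lowest there, at 10.2 and 16.4 FPKM, and Slc23a1 is lowest in ND, at 8.29 FPKM.

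The folate transporter gene showed the largest rise of the 9 tested. Slc46a1 (chromosome 11, 78465697 to 78472059 on the plus strand of GRCm38) stood at 16.0, 14.1, 29.7 and 12.0 FPKM in FSP 1 to 4, at 87.7, 32.4, 99.5 and 137.2 FPKM in HFD 1 to 4, and at 2.69, 5.39 and 7.96 FPKM in ND 1 to 3. The 3 groups did not overlap, HFD being highest and ND lowest, and HFD 2 was the lowest HFD library and FSP 3 the highest FSP library. The HFD mean was 16.7-fold the ND mean, a log2 change of 3.75 on the log2(FPKM + 1) scale (SE 0.46, 95% interval 2.74 to 4.76, limma adjusted p = 0.000789).

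Slc46a1 was lower in FSP than in HFD, with means of 17.9 ± 8.03 and 89.2 ± 43.3 FPKM (SD, n = 4 each), a log2 change of −2.16 (SE 0.43, limma adjusted p = 0.0235). That call ended without any 1 of FSP 1, FSP 2, FSP 4, HFD 1, HFD 3 and HFD 4 (limma adjusted p 0.0535 to 0.0801), with the direction kept. Against ND, at 5.35 ± 2.64 FPKM (SD, n = 3), FSP was 3.36-fold higher in mean with no overlap between groups (exact permutation p = 0.0286, the smallest this design gives), but the log2 change of 1.59 did not pass the threshold (limma adjusted p = 0.138). Among the 10 transporters ranked by mean FPKM, Slc46a1 was 6th in FSP, 1st in HFD and 8th in ND.

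The 2 riboflavin carrier genes behaved differently from each other in level. Slc52a3 (chromosome 2, 151996511 to 152009258, plus strand) encodes the carrier of the brush border. It stood at 52.9, 60.1, 25.2 and 67.5 FPKM in FSP 1 to 4, at 6.71, 13.8, 11.1 and 9.18 FPKM in HFD 1 to 4, and at 83.7, 94.5 and 94.8 FPKM in ND 1 to 3. From low to high the groups lay apart in the order HFD, FSP, ND, with FSP 3 the FSP library nearest to HFD. The HFD mean was 8.93-fold lower than the ND mean, a log2 change of −3.08 (SE 0.30, 95% interval −3.74 to −2.42, limma adjusted p = 0.000338). The FSP mean exceeded the HFD mean 5.05-fold (log2 change 2.18, SE 0.28, 95% interval 1.57 to 2.79, limma adjusted p = 0.00843). In FSP against ND the log2 change was −0.90 (SE 0.30, limma adjusted p = 0.196), and although no FSP library reached the lowest ND library the exact permutation p was 0.0571.

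Slc52a2 (chromosome 15, 76538832 to 76544608, plus strand), a riboflavin carrier found in many tissues, ran within narrow ranges of 10.21 to 13.0 FPKM in FSP, 7.34 to 10.15 FPKM in HFD and 7.64 to 9.90 FPKM in ND. HFD and ND overlapped throughout, with a log2 change of 0.01 whose 95% interval ran from −0.28 to 0.31 (limma adjusted p = 0.945). All FSP libraries lay above all HFD and all ND libraries (exact permutation p = 0.0286 for each), with FSP 3 only just above HFD 4, and the log2 changes of 0.37 and 0.38 did not pass the threshold (limma adjusted p = 0.137 and 0.220). The level of Slc52a3 relative to Slc52a2 within a library was 2.47 to 5.71 in FSP, 0.904 to 1.67 in HFD and 9.58 to 11.3 in ND. Slc52a3 thus stood well above Slc52a2 in FSP and ND and near it in HFD.

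The thiamine carrier genes changed in both directions. Slc44a4 (chromosome 17, 34914466 to 34930436, plus strand), a member of the choline transporter-like family that carries the phosphorylated form of thiamine made by gut bacteria, stood at 41.1, 51.6, 42.9 and 69.98 FPKM in FSP 1 to 4, at 12.4, 19.2, 17.6 and 16.2 FPKM in HFD 1 to 4, and at 98.9, 96.7 and 67.5 FPKM in ND 1 to 3. HFD lay below both other groups, and FSP 4 overlapped ND 3. The HFD mean was 5.36-fold lower than the ND mean, a log2 change of −2.35 (SE 0.21, limma adjusted p = 0.000230). The FSP mean exceeded the HFD mean 3.14-fold (log2 change 1.58, SE 0.20, limma adjusted p = 0.00843). In FSP against ND the log2 change was −0.77 and did not pass (limma adjusted p = 0.120, exact permutation p = 0.0857).

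Slc19a2 and Slc19a3 encode the high-affinity carriers of free thiamine. Slc19a2 (chromosome 1, 164249046 to 164265385, plus strand) stood at 2.45, 2.68, 4.47 and 3.16 FPKM in FSP 1 to 4, at 4.15, 4.23, 5.26 and 5.94 FPKM in HFD 1 to 4, and at 2.90, 2.63 and 2.25 FPKM in ND 1 to 3. Every HFD library exceeded every ND library, and FSP 3 lay within the HFD range. The HFD mean was 1.89-fold the ND mean, a log2 change of 0.71 (SE 0.17, limma adjusted p = 0.0166), a call that ended without ND 2 or ND 3 (limma adjusted p = 0.0630 and 0.0585) and with libraries rescaled to equal totals (limma adjusted p = 0.0606). Between FSP and HFD the log2 change was −0.51 (SE 0.16, limma adjusted p = 0.117, exact permutation p = 0.0857). That difference was past the threshold without FSP 3 (limma adjusted p = 0.0364). FSP and ND overlapped, with a log2 change of 0.20 (limma adjusted p = 0.612).

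Slc19a3 (chromosome 1, 83012523 to 83038448, minus strand) was the lowest of the 10 transporters in all 3 groups. It stood at 0.143, 0.110, 0.226 and 0.204 FPKM in FSP 1 to 4, at 1.27, 0.303, 1.84 and 2.13 FPKM in HFD 1 to 4, and at 0.0918, 0.0662 and 0.138 FPKM in ND 1 to 3. HFD 1, HFD 3 and HFD 4 stood well above all other libraries, and HFD 2 stood only just above the highest FSP library. With GENCODE exon lengths these levels correspond to about 12.5 to 26.5 fragments in FSP, 31.5 to 243.8 in HFD and 7.44 to 15.7 in ND. At this level it did not enter the limma fit. The exact permutation p was 0.0571 for HFD against ND, 0.0286 for FSP against HFD and 0.114 for FSP against ND, all unadjusted. The level of Slc19a2 relative to Slc19a3 was 15.4 to 24.4 in FSP, 2.80 to 13.9 in HFD and 16.3 to 39.7 in ND.

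Slc23a1 was the transporter in which FSP stood with HFD and apart from ND. It lies on chromosome 18 and encodes the sodium-coupled ascorbate carrier of absorptive epithelia. It stood at 39.6, 29.3, 50.5 and 29.4 FPKM in FSP 1 to 4, at 23.5, 32.7, 47.6 and 51.9 FPKM in HFD 1 to 4, and at 3.14, 6.64 and 15.1 FPKM in ND 1 to 3. FSP and HFD overlapped, with HFD 1 the lowest and HFD 4 the highest of the 8, and all ND libraries lay below both groups. The log2 change was 2.26 in HFD against ND (SE 0.41, limma adjusted p = 0.00374) and 2.22 in FSP against ND (SE 0.41, 95% interval 1.33 to 3.11, limma adjusted p = 0.0298).

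In FSP against HFD the log2 change of Slc23a1 was −0.03, with a 95% interval of −0.86 to 0.79 (limma adjusted p = 0.978), an interval wide enough to hold a difference of either sign. The call in FSP against ND ended without any 1 of FSP 1, FSP 3, HFD 3, ND 1 and ND 2 (limma adjusted p 0.0517 to 0.150), while the call in HFD against ND held without each single library. Mouse liver makes ascorbate, so unlike the other vitamins here it need not come from food. The gene's span in RefSeq overlaps that of Paip2, which stood at 18.8 FPKM in FSP, 18.7 in HFD and 19.0 in ND.

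Biotin and pantothenate enter through the sodium-dependent multivitamin transporter encoded by Slc5a6 (chromosome 5, 31036036 to 31048924, minus strand). It stood at 10.4, 6.73, 5.65 and 15.2 FPKM in FSP 1 to 4, at 2.24, 2.96, 4.80 and 5.20 FPKM in HFD 1 to 4, and at 17.1, 15.9 and 13.7 FPKM in ND 1 to 3. HFD lay below both other groups, and FSP 4 lay within the ND range. The HFD mean was 4.09-fold lower than the ND mean, a log2 change of −1.83 (SE 0.30, limma adjusted p = 0.00240). The FSP mean was 2.50-fold higher than the HFD mean with no overlap (exact permutation p = 0.0286), and the log2 change of 1.09 (SE 0.28) missed the threshold (limma adjusted p = 0.0567). Without FSP 3 it was past the threshold (limma adjusted p = 0.0302). Against ND the log2 change in FSP was −0.74 (limma adjusted p = 0.282). Of its exon bases, 9.92% overlap those of Atraid on the opposite strand, which stood at 29.8 FPKM in FSP, 21.8 in HFD and 32.1 in ND, and whether the counting used strand is not stated.

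The cobalamin receptor has a subunit for binding and one for anchoring. Amn (chromosome 12, 111271095 to 111276426, plus strand) encodes amnionless, which anchors cubilin in the membrane and carries it to the cell surface. Its level was 109.7, 119.7, 70.4 and 100.3 FPKM in FSP 1 to 4, 43.1, 58.6, 52.7 and 47.4 FPKM in HFD 1 to 4, and 68.5, 86.1 and 104.5 FPKM in ND 1 to 3. HFD lay below both other groups, which overlapped each other. The log2 change was −0.75 in HFD against ND (SE 0.20, limma adjusted p = 0.0211), 0.96 in FSP against HFD (SE 0.18, limma adjusted p = 0.0207) and 0.20 in FSP against ND (SE 0.20, limma adjusted p = 0.650).

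Both calls of Amn ended with median-ratio scaling, which scales each library by the median ratio of its genes (limma adjusted p = 0.167 in HFD against ND and 0.0826 in FSP against HFD). The call in HFD against ND also ended without ND 2 or ND 3 (limma adjusted p = 0.0786 and 0.0763), and that in FSP against HFD without any 1 of FSP 1, FSP 2, FSP 4, HFD 1, HFD 3 and HFD 4 (limma adjusted p 0.0502 to 0.0733).

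Cubn (chromosome 2, 13276338 to 13491813, minus strand) encodes cubilin, the large receptor that binds intrinsic factor with its cobalamin. It stood at 55.3, 37.3, 45.2 and 73.5 FPKM in FSP 1 to 4, at 22.8, 27.9, 41.3 and 49.0 FPKM in HFD 1 to 4, and at 46.5, 43.2 and 31.1 FPKM in ND 1 to 3. All 3 groups overlapped. In HFD against ND the log2 change was −0.23 with a 95% interval of −0.84 to 0.39 (limma adjusted p = 0.558). In FSP against HFD it was 0.59 with an interval of 0.02 to 1.16 (limma adjusted p = 0.251, exact permutation p = 0.143), and in FSP against ND 0.36 (limma adjusted p = 0.575). A difference of Cubn was therefore not detected with these libraries, and the intervals leave room for changes of the size seen for Amn.

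**Figure D2:**
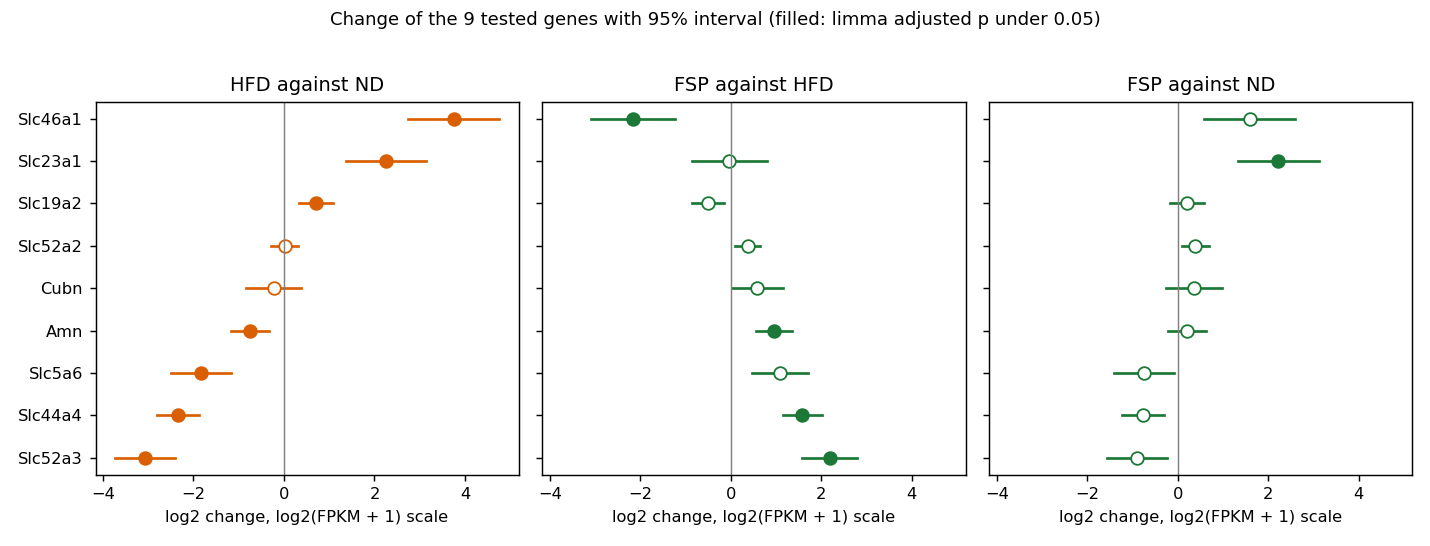
Log2 change on the log2(FPKM + 1) scale (horizontal axis) of the 9 tested transporter genes with 95% intervals from limma, in HFD against ND, FSP against HFD and FSP against ND; filled points have a limma adjusted p under 0.05. In HFD against ND the changes run from −3.08 for Slc52a3 to 3.75 for Slc46a1, and in FSP against ND the filled point is Slc23a1.

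The groups differed in which carriers made up the transporter transcripts. Summed FPKM of the 10 genes was 284.5 to 383.0 in FSP, 200.3 to 334.3 in HFD and 331.1 to 359.5 in ND. All 3 groups overlapped, HFD and ND only through HFD 4 and ND 1. Slc46a1 made up 4.71%, 4.21%, 10.5% and 3.13% of that sum in FSP 1 to 4, 41.5%, 16.2%, 34.2% and 41.0% in HFD 1 to 4, and 0.812%, 1.4995% and 2.29% in ND 1 to 3. Slc52a3 made up 8.85% to 17.97% in FSP, 2.75% to 6.88% in HFD and 25.3% to 27.3% in ND. The folate carrier thus held the first place in 3 of the 4 HFD libraries, and Amn, Slc44a4 and Slc52a3 shared the upper places in ND. Slc23a1 made up 7.69% to 17.7% in FSP, 11.1% to 16.4% in HFD and 0.948% to 4.35% in ND, and the cobalamin receptor gene Cubn kept similar shares, of 11.1% to 19.2% in FSP, 10.8% to 14.7% in HFD and 8.97% to 14.0% in ND.

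**Figure D3:**
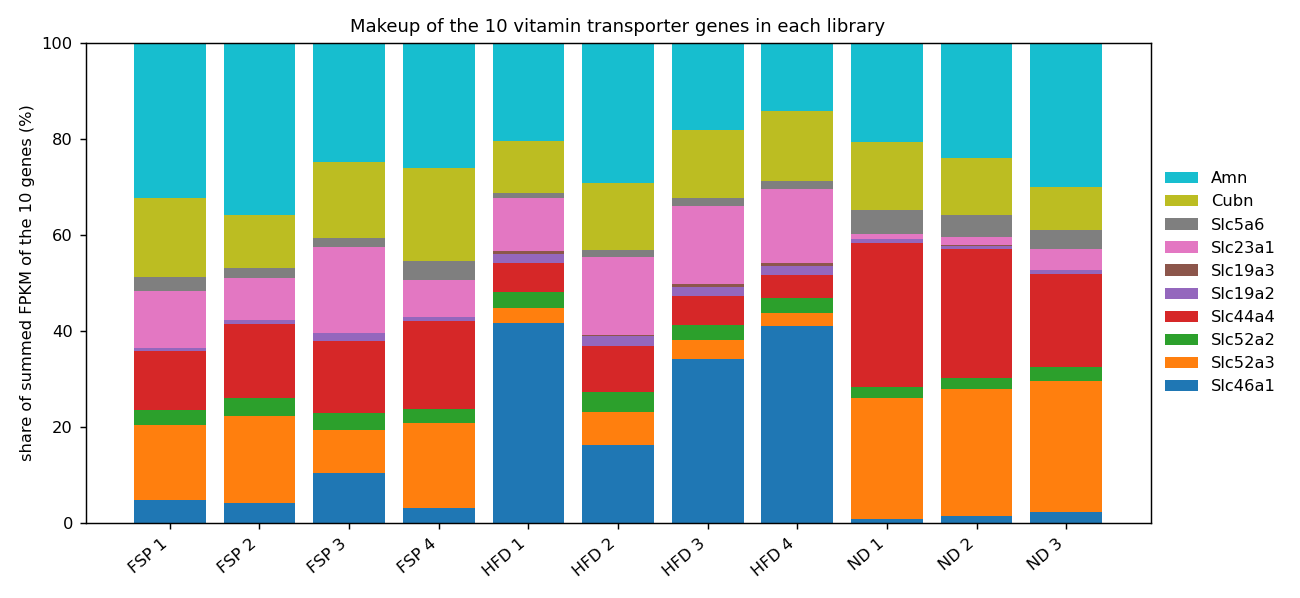
Share of the summed FPKM of the 10 transporter genes (vertical axis, %) taken by each gene, with 1 bar per library in the groups FSP, HFD and ND. Slc46a1 takes 16.2% to 41.5% in HFD and at most 10.5% elsewhere, while Slc52a3 takes at least 25.3% in ND.

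A within-library ratio does not depend on library scaling. The level of Slc52a3 relative to Slc46a1 was 3.31, 4.26, 0.847 and 5.64 in FSP 1 to 4, 0.0765, 0.425, 0.111 and 0.0669 in HFD 1 to 4, and 31.1, 17.5 and 11.9 in ND 1 to 3. The groups did not overlap, HFD being lowest and ND highest, and FSP 3 was the FSP library with more Slc46a1 than Slc52a3. Both genes were picked as those with the largest fall and the largest rise in HFD against ND. Their own levels already lay apart in opposite orders, so the ratio could not overlap and carries no test.

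Inside each group, 1 library from an end of the position score is described here. In groups of 3 or 4 libraries any library is the highest or lowest for many genes, so such extremes carry no test. The libraries at the other end of the score, HFD 4, FSP 4 and ND 1, are not described. HFD 2 had the highest score of the HFD libraries, the lowest Slc46a1 and Slc19a3 and the highest Slc52a3, Slc44a4 and Amn of that group. FSP 3 had the lowest score of the FSP libraries, the highest Slc46a1, Slc23a1, Slc19a2 and Slc19a3 and the lowest Slc52a3, Slc52a2, Slc5a6 and Amn. ND 3 had the lowest score of the ND libraries, the highest Slc46a1, Slc23a1, Slc19a3, Slc52a3, Slc52a2 and Amn and the lowest Slc44a4, Slc5a6, Slc19a2 and Cubn. Amn was thus highest in the ND library with the lowest score and lowest in the FSP library with the lowest score. Slc52a3 was likewise lowest in that FSP library, while ND 3 and ND 2 were nearly level for it, at 94.8 and 94.5 FPKM. FSP 1, FSP 2 and ND 3 had nearly the same score, of 1.75, 1.75 and 1.73, and at that score Slc23a1 stood at 39.6 and 29.3 FPKM in FSP 1 and FSP 2, against 15.1 FPKM in ND 3. In the same 3 libraries Slc52a3 stood at 52.9 and 60.1 FPKM in FSP 1 and FSP 2, against 94.8 FPKM in ND 3, and these values of single libraries carry no test. These libraries were not identical on the parts of the score, FSP 1 lying nearer to ND 3 than FSP 2 did. The proximal mean was 4.73 and 4.90 in FSP 1 and FSP 2 against 4.66 in ND 3, and the distal mean 6.48 and 6.65 against 6.39. Summed FPKM of the colon genes was 102.4 and 125.1 against 226.9. The part of gut position in the group differences was not tested.

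**Figure D4:**
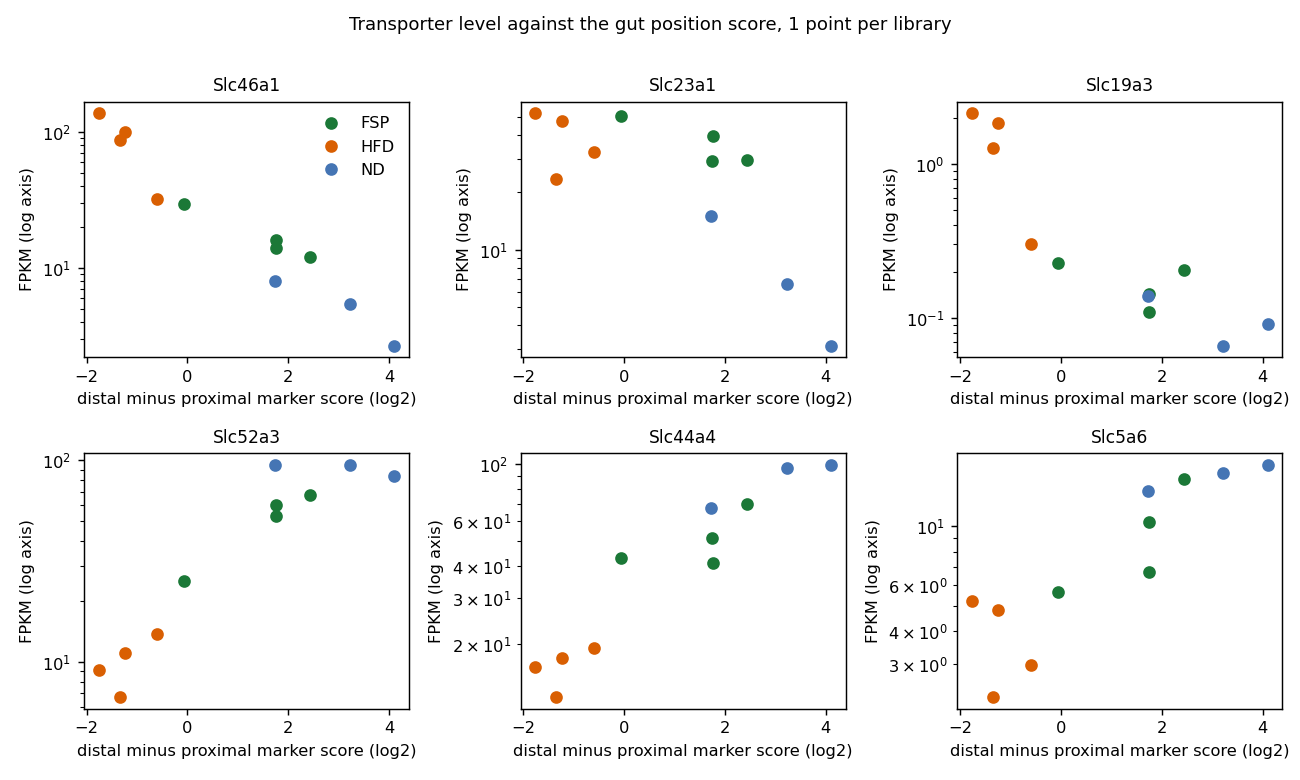
FPKM on a log axis of 6 transporter genes against the position score (distal minus proximal mean log2(FPKM + 1)), with 1 point per library coloured by group. HFD libraries have scores of −1.76 to −0.60 and ND libraries of 1.73 to 4.10, with Slc46a1 high at low scores and Slc52a3 and Slc44a4 high at high scores.

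The genes whose levels over the 11 libraries were most like those of each transporter were found by the root mean square difference of log2(FPKM + 1) values centred on their means. Nearest to Slc46a1, whose own spread was 1.62, were Bbox1 at 0.33, the last enzyme of carnitine synthesis, the digestive protease gene Cym at 0.39 and the alcohol dehydrogenase Adh4 at 0.40. Nearest to Slc52a3, with a spread of 1.34, were the brush-border protease Mep1a at 0.36, the bile acid exporter subunit Slc51a at 0.39 and the calcium-binding protein Ocm at 0.40, of which Mep1a and Slc51a belong to the distal list. Nearest to Slc23a1, with a spread of 1.13, were the glucuronosyltransferase Ugt2a3 at 0.31, the nucleoside carrier Slc28a2 at 0.34 and the retinol dehydrogenase Rdh7 at 0.38. Nearest to Slc44a4, with a spread of 1.00, were Ext1 at 0.22, Gdpd1 at 0.25 and Bmp2 at 0.28, and nearest to Slc5a6, with a spread of 0.83, were Blmh at 0.22, Fam83e at 0.26 and Acss1 at 0.27. The remaining transporters varied less, by 0.23 for Slc52a2 to 0.49 for Amn, with a nearest gene at 0.09 for Slc52a2 (Tmbim1), 0.10 for Slc19a2 (Ireb2), 0.17 for Amn (Pwwp2b) and 0.19 for Cubn (Eef2k).

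The promoter windows of 3 transporters are shown as those of a gene that rose in HFD against ND, Slc46a1, one that fell, Amn, and one that did not pass, Cubn. RefSeq (GRCm38.p6) gave windows for 7 of the 10 genes, and the 250 bases before the start are printed 5′ to 3′ on the gene's strand, at chr11:78465451-78465700 (plus) for Slc46a1, chr12:111270846-111271095 (plus) for Amn and chr2:13491877-13492126 (minus) for Cubn. Capitals mark matches, on either strand, to CAAAG, the core of the HNF4 motif, or to GGGCGG, the GC box.
Slc46a1: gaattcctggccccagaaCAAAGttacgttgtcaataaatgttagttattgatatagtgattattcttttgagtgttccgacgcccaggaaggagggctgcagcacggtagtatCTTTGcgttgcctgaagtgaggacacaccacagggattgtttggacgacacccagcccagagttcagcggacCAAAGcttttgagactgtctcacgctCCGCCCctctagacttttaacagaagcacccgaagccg
Amn: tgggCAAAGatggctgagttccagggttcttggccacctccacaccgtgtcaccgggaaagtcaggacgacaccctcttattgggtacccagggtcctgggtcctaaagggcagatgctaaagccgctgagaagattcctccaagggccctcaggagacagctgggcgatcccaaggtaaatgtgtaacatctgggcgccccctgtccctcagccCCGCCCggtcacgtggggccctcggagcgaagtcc
Cubn: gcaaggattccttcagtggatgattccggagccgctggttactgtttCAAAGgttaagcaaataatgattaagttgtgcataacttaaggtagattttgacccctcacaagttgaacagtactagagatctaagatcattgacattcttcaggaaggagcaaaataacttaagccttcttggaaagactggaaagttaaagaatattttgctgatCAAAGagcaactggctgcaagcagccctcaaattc

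Slc46a1 held 3 matches to CAAAG and 1 GC box, Amn held 1 of each, and Cubn held 2 matches to CAAAG and 0 GC boxes. Among the windows of all genes of the same length, 48.6% held CAAAG and 32.7% held GGGCGG, so such matches are common. The longer HNF4 motif CAAAGTCCA, which contains CAAAG, was in 0.384% of all windows, the GATA motif AGATAA in 9.99%, the CDX motif TTTATG in 10.8% and the TATA box TATAAA in 12.4%, and these 3 windows held none of the 4. The G and C content was 49.6% for Slc46a1, 61.2% for Amn and 39.6% for Cubn. A match describes letters and is not a bound site.

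Of 16 transcription factors of gut regions or of vitamin transporter promoters, 13 were tested. Of these, 3 were higher and 3 lower in HFD than in ND, where 5.36% of all tested genes were higher and 15.1% lower. In FSP against HFD, 1 was higher and 1 lower, where 2.83% of all tested genes were higher and 0.913% lower. Gata6, a zinc finger factor of the small intestine epithelium, stood at 28.8 ± 3.66 FPKM in FSP (SD, n = 4), 42.4 ± 4.26 in HFD (SD, n = 4) and 23.3 ± 0.589 in ND (SD, n = 3). It rose by a log2 of 0.83 in HFD against ND (limma adjusted p = 0.00165) and fell by 0.55 in FSP against HFD (limma adjusted p = 0.0291). Gata4, a proximal factor that is also in the proximal list, rose by 0.91 in HFD against ND (limma adjusted p = 0.0285). Cdx1 fell by 0.45 in that comparison (limma adjusted p = 0.0318). Hnf4a, a nuclear receptor of the gut epithelium, fell by 0.73 (limma adjusted p = 0.00879) and Klf4, a factor of differentiated epithelium, by 0.66 (limma adjusted p = 0.0129), and Klf4 was higher in FSP than in HFD by 0.65 (limma adjusted p = 0.0335).

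Further genes that handle vitamins were described as lists. Of 109 genes in 8 lists of vitamin transport, trapping and cofactor synthesis, 104 were in the table and 78 were tested. Between HFD and ND 9 rose, 9 fell and 60 did not pass, where 20.5% of all tested genes were past the threshold. The lists together lay near that background with both directions pooled. By direction, the rises were a larger share than the 5.36% over all tested genes and the falls a smaller share than the 15.1%. Their median log2 change was −0.09, against −0.21 over all genes. Between FSP and HFD 3 rose, 1 fell and 74 did not pass (median 0.03), with 3.74% past the threshold over all tested genes. In FSP against ND 0 rose, 1 fell and 77 did not pass by limma (median 0.01), with 1.03% past it over all tested genes. Each count below for a single vitamin in HFD against ND is to be read against 5.36% higher and 15.1% lower over all tested genes.

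Of 19 tested folate genes, HFD had 1 higher and 2 lower than ND. The exporter Abcg2, which carries folates among many other substrates, averaged 39.7 ± 3.32 FPKM in FSP, 24.7 ± 4.28 in HFD (SD, n = 4 each) and 82.2 ± 18.6 in ND (SD, n = 3). It fell by 1.69 in HFD against ND (limma adjusted p = 0.000367), rose by 0.68 in FSP against HFD (limma adjusted p = 0.0425) and fell by 1.01 in FSP against ND (limma adjusted p = 0.0247). Aldh1l1, which oxidises formyl tetrahydrofolate, fell by 1.29 in HFD against ND (limma adjusted p = 0.00211) and rose by 0.95 in FSP against HFD (limma adjusted p = 0.0250). The second folate carrier gene, Slc19a1, averaged 1.47 FPKM in FSP, 2.42 in HFD and 1.93 in ND and did not pass in any comparison.

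Of 6 tested genes of riboflavin and its cofactors, HFD had 1 higher and 1 lower than ND. Rfk, the kinase that makes flavin mononucleotide from riboflavin, averaged 340.2 ± 62.2 FPKM in HFD (SD, n = 4) and 730.8 ± 31.2 in ND (SD, n = 3), a log2 change of −1.12 (limma adjusted p = 0.00202). Enpp3, an ectoenzyme that splits nucleotide cofactors, averaged 169.8 ± 84.5 FPKM in HFD and 10.2 ± 9.25 in ND, a log2 change of 4.19 (limma adjusted p = 0.00199). Of 10 tested thiamine genes, Bckdha, a subunit of a thiamine-dependent dehydrogenase, rose by 0.59 in HFD against ND (limma adjusted p = 0.0107). Neither list had a gene past the limma threshold between FSP and HFD.

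Of 4 tested ascorbate genes, Slc23a2, the more widely expressed ascorbate carrier, averaged 7.06 ± 2.30 FPKM in HFD and 2.52 ± 0.164 in ND, a log2 change of 1.15 (limma adjusted p = 0.0147). Of 13 tested genes of biotin and pantothenate, HFD had 0 higher and 3 lower than ND. Vnn1, a pantetheinase that releases pantothenate, fell by 2.22 (limma adjusted p = 0.00186), and Pank2, which commits pantothenate to coenzyme A, by 0.42 (limma adjusted p = 0.0133). Acaca, a biotin-dependent carboxylase, fell by 0.67 (limma adjusted p = 0.0450).

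Of 12 tested cobalamin genes, 0 rose and 1 fell, Mmadhc, which directs cobalamin to its enzymes, by 0.52 (limma adjusted p = 0.0382). Tcn2, the plasma carrier that takes cobalamin on from the gut, averaged 163.6 FPKM in FSP, 112.1 in HFD and 159.2 in ND, with log2 changes of −0.54 in HFD against ND and 0.57 in FSP against HFD that did not pass (limma adjusted p = 0.0541 and 0.0859). It was named after its values were seen.

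For vitamins outside the 10 transporters, 4 of 10 tested genes of niacin and NAD were higher and 1 lower in HFD than in ND. The gene that fell was Slc5a8, a sodium-coupled carrier of nicotinate and short-chain fatty acids, at 31.4 ± 9.02 FPKM in FSP, 5.96 ± 5.91 in HFD (SD, n = 4 each) and 81.5 ± 17.0 in ND (SD, n = 3). Its log2 change was −3.94 in HFD against ND (limma adjusted p = 0.000959) and 2.57 in FSP against HFD (limma adjusted p = 0.0206). Slc5a12, a carrier of the same family in the same list, rose by 0.96 in HFD against ND (limma adjusted p = 0.0261), and Nmnat3, an enzyme of NAD synthesis, by 0.86 (limma adjusted p = 0.0134). Nadk2, the mitochondrial NAD kinase, rose by 0.89 in HFD against ND (limma adjusted p = 0.0373) and fell by 1.05 in FSP against HFD (limma adjusted p = 0.0422). Of 5 tested vitamin B6 genes 1 rose in HFD against ND, the intestinal alkaline phosphatase Alpi, which dephosphorylates vitamin B6 esters, at 685.2 ± 182.1 FPKM in HFD and 289.1 ± 53.1 in ND (log2 change 1.22, limma adjusted p = 0.00228). Alpi is also in the enterocyte marker list, of whose 9 genes 1 rose and 3 fell in that comparison. Over all tested genes 5.36% were higher and 15.1% lower there.

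**Figure D5:**
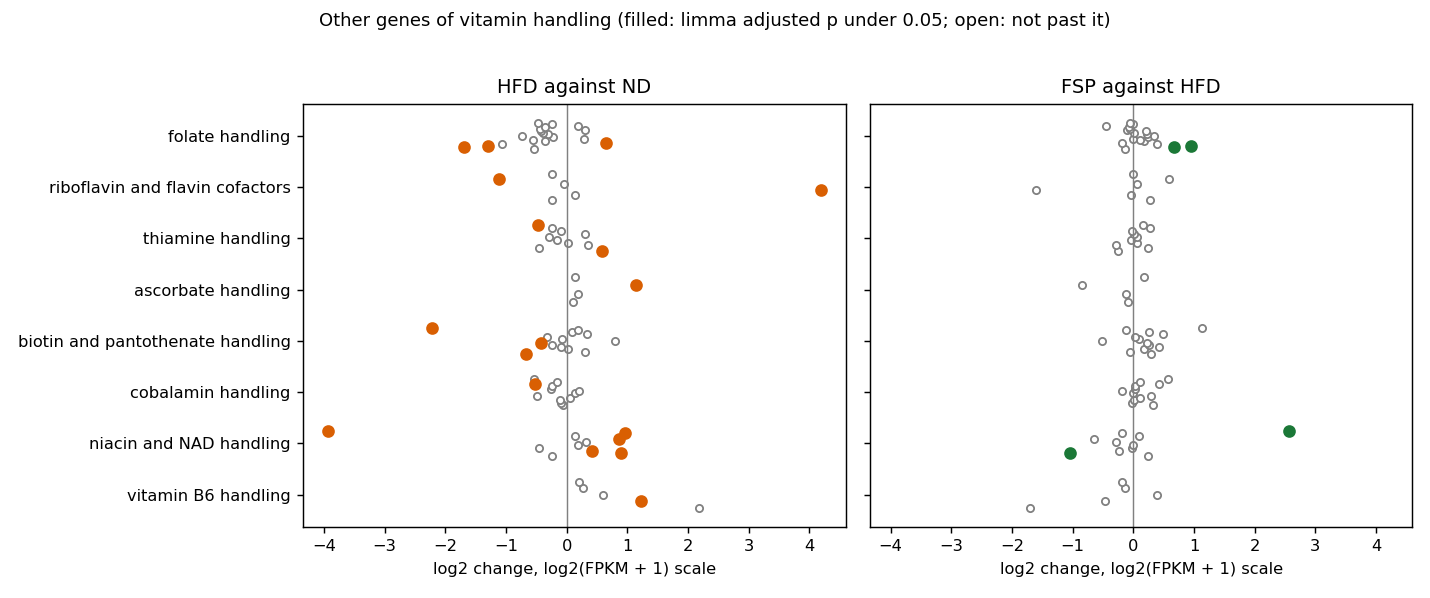
Log2 change on the log2(FPKM + 1) scale (horizontal axis) of the tested genes in 8 lists of vitamin handling (rows) in HFD against ND and FSP against HFD; filled points have a limma adjusted p under 0.05. In HFD against ND the filled points run from −3.94 for Slc5a8 to 4.19 for Enpp3, and in FSP against HFD 4 of the 78 points are filled.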

How the data were processed

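The authors deposited gene levels of the 11 mouse small intestine libraries (FSP 4, HFD 4, ND 3, grouped by sample title) as FPKM, a unit in which an abundant RNA class lowers every other gene of its library. Per the labels, RNA came from TRIzol extraction and a VAHTS Universal V6 kit. Tools in the submitters' processing notes are fastp, HISAT2, HTSeq and R 3.2.0, with the build mm10; for annotation, strand and FPKM tool, none is given in the sources used here. The single-library tables of FSP list other genes than those of HFD and ND, so a difference in how FSP was tabulated and the group cannot be told apart.

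Depth, recovered from 658 single-exon genes, was 3.18e+07 to 3.84e+07 fragments per library, and 75.0% to 79.3% of their values at or under 10 fragments lay within 0.05 of a whole fragment. Lengths of other genes are not stated, so no count model was used, and levels well under 1 FPKM rest on few fragments.

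All 11 libraries entered one two-sided limma fit (version 3.58.1, R 4.3.3, intensity trend, no covariate) of log2(FPKM + 1) over the 10296 genes with a mean of at least 1 FPKM, with Benjamini-Hochberg adjustment within a comparison and a threshold of 0.05. The scale understates changes of low genes. The fit was checked on simulated data. For single genes a two-sided exact permutation test of the mean log2 difference was added, whose smallest p is 0.0286. Separate animals per library are not stated, and p-values therefore measure only the spread between samples, which may be technical.

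The 10 transporters, the gene lists and the marker lists were chosen with earlier results of these data known. Named genes were all 10 transporters and, of each vitamin or factor list, up to 4 genes past the threshold per comparison by smallest p. Slc19a1, Gata4, Cdx1 and Tcn2 were added after their values were seen. Some genes that this rule names are not reported here. Gene positions are from GENCODE M21 (GRCm38). Alternatives were another pseudocount, filter or scaling, the 2 groups alone, a replicate block, and leaving out each library. Python 3.11.15, pandas 2.3.3 and numpy 2.4.6 were used.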

Additional observations from a re-analysis of the deposited data

How the results depend on the processing

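The number of transporter genes past limma's threshold was 7 in HFD against ND (5 to 7 without single libraries), 4 in FSP against HFD (2 with no filter on low values, 2 to 6 without single libraries) and 1 in FSP against ND (0 with no filter, 0 in a fit of the 2 groups only, 0 to 1 without single libraries). Over all tested genes the counts were 2109 in HFD against ND (849 to 2678 without single libraries, with 877 without ND 1 and 849 without ND 2), 385 in FSP against HFD (117 with no filter, 245 with median-ratio scaling, 76 in a fit of the 2 groups only, 48 to 458 without single libraries) and 106 in FSP against ND (58 with no filter, 13 to 201 without single libraries). Median-ratio scaling moved the split to 899 higher and 799 lower in HFD against ND, where the main split was 552 and 1557, and to 142 and 103 in FSP against HFD, where it was 291 and 94. Rescaling to equal totals without mitochondrially encoded genes gave 163 and 125 in FSP against HFD and 75 and 73 in FSP against ND. The calls of Slc52a3 and Slc44a4 in HFD against ND and in FSP against HFD, and those of Slc46a1, Slc23a1 and Slc5a6 in HFD against ND, held under every alternative run. In FSP against HFD the call of Slc46a1 ended with no filter (limma adjusted p = 0.0746) and in a fit of the 2 groups only (0.0517), and that of Slc23a1 in FSP against ND likewise (0.0921 and 0.0561). The calls of Amn ended with no filter in HFD against ND (0.0518) and in FSP against HFD (0.0580). Slc5a6 was past the threshold in FSP against HFD with a filter of 5 FPKM (0.0448). With no filter Slc19a3 was past it in HFD against ND (limma adjusted p = 0.0349) and not in FSP against HFD (0.101). Values near 0 changed sign: the log2 change of Slc52a2 in HFD against ND was −0.093 with equal totals, −0.026 with the replicate block and −0.063 to 0.11 without single libraries, that of Cubn in HFD against ND was 0.024 with median-ratio scaling, and that of Slc23a1 in FSP against HFD was 0.064 with equal totals and −0.25 to 0.12 without single libraries. For each change listed here the cause was not tested. Deviations from the group mean correlated across genes with a mean r of 0.143 (−0.10 to 0.45) over 10 pairs of same-numbered libraries and −0.0445 (−0.62 to 0.65) over 30 pairs with different numbers; between FSP and HFD the means were 0.311 over 4 pairs and −0.0995 over 12. Not every same-numbered pair exceeded 0.1, and FSP 2 correlated best with HFD 1, so same-numbered libraries were not treated as pairs in the main fit. The number did order the libraries alike in every group. Recovered fragments rose with it at every step, and the share of mitochondrially encoded genes fell. From the first to the last library that share went from 21.9% to 12.9% in FSP, 40.4% to 18.1% in HFD and 22.2% to 16.3% in ND. What the number stands for is not stated, and its source was not tested. With a replicate block the transporter counts were 7, 5 and 1 in the 3 comparisons, the added gene being Slc5a6 in FSP against HFD (limma adjusted p = 0.0388).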
